A study of Mus musculus with 2 samples.

Results

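A set of 10 genes of the vessel wall and of visceral smooth muscle is described here, found by gene symbol in the tables of gene and isoform expression. The set is 10 of 43437 genes and 18 of 103615 isoforms. They fall into 5 contractile smooth muscle genes (Acta2, Actg2, Tagln, Cnn1 and Myh11), 4 pericyte genes (Pdgfrb, Rgs5, Cspg4 and Anpep) and Pdgfb, the ligand of the receptor that Pdgfrb encodes. Each symbol stood on a single row, and all 10 genes had 1 FPKM or more in at least 1 library, the floor for a measured gene. FPKM counts sequenced fragments relative to the length of the transcript and to the size of the library, so it allows levels of different genes to be compared per length.

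The study sequenced RNA from the telencephalon, the front of the embryonic brain, and from the whole body of E12.5 fetuses of wild-type ICR mice, untreated, with a single library per tissue. The ICR mouse is outbred, and how many fetuses gave the RNA, and of which sex, is not in the labels. Without replicate libraries no test between the tissues could be made, and every interval covers counting error only. The low FPKM values step in whole fragments, which put the depth at about 22800000 fragments in telencephalon and 29350000 in whole body. Counts at 2-fold, here and below, are on the scale of log2(FPKM + 1), which understates the difference of weakly expressed genes, and folds of single genes are plain ratios of FPKM. The tissue labels were checked against 10 forebrain genes. All 10 were higher in telencephalon, 9 of them past 2-fold on the log2 scale (summed level 1055 FPKM in telencephalon and 68.5 in whole body).

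Smooth muscle cells contract by sliding actin against smooth muscle myosin, and they wrap arteries, the gut, the airways and the bladder. Pericytes sit singly on capillaries. Sprouting endothelium releases PDGF-B, which draws pericytes carrying PDGF receptor beta along new vessels, and in the embryonic brain this signal is needed for pericytes to cover the capillaries. In smooth muscle the contractile genes are driven by the serum response factor SRF with its coactivator myocardin, through DNA motifs known as CArG boxes.

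The actin members are shown first, since their near-copies elsewhere in the genome bear on how well their fragments can be assigned. The lines give the first 60 coding bases of the 2 smooth muscle actins and of the cardiac actin Actc1 from the GENCODE M21 transcripts (GRCm38). Capitals mark bases that do not match Acta2 in an alignment of the whole coding sequences, or, in the Acta2 line, that do not match Actg2.
Acta2: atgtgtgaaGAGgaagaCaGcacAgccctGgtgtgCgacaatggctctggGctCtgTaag
Actg2: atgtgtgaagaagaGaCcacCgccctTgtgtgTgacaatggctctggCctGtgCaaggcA
Actc1: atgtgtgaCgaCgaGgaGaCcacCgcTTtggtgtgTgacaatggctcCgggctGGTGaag
Over the whole coding sequence Acta2 was 84.2% identical to Actg2 and 82.5% identical to Actc1. Differences were spread densely enough that 99.6% of the 50-base stretches of the Acta2 transcript, and 100% of those of Actg2, occurred in no other gene. Reads of 50 bases can therefore be told apart between them along nearly the whole length. The 7 stretches of Acta2 found elsewhere all occurred in Actg1, a cytoplasmic actin at 1197 FPKM in telencephalon, and in Actg-ps1. Whether Actg1 fragments entered the Acta2 value, 0.334 FPKM in telencephalon, was not tested.

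All 5 contractile genes were lower in telencephalon than in whole body, by 19.4-fold to 462-fold. Their summed level was 1.77 FPKM in telencephalon and 201 FPKM in whole body, or 0.882%, resting on about 52 fragments in telencephalon and 9854 in whole body. Of the 10 genes 8 were at least 2-fold lower on the log2 scale, made up of 5 of 5 contractile and 3 of 4 pericyte genes, and none was 2-fold higher. Among all 14987 measured genes 21.2% were 2-fold lower and 9.39% were 2-fold higher. These shares are the background for each 2-fold count below. The 5 contractile genes and Anpep passed the floor through whole body alone, and the share over all genes used the same floor. In several lists below, some or all of the genes counted as lower also passed it through whole body alone. In bulk RNA fewer cells of a type and less RNA per cell cannot be told apart.

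**Figure D1:**
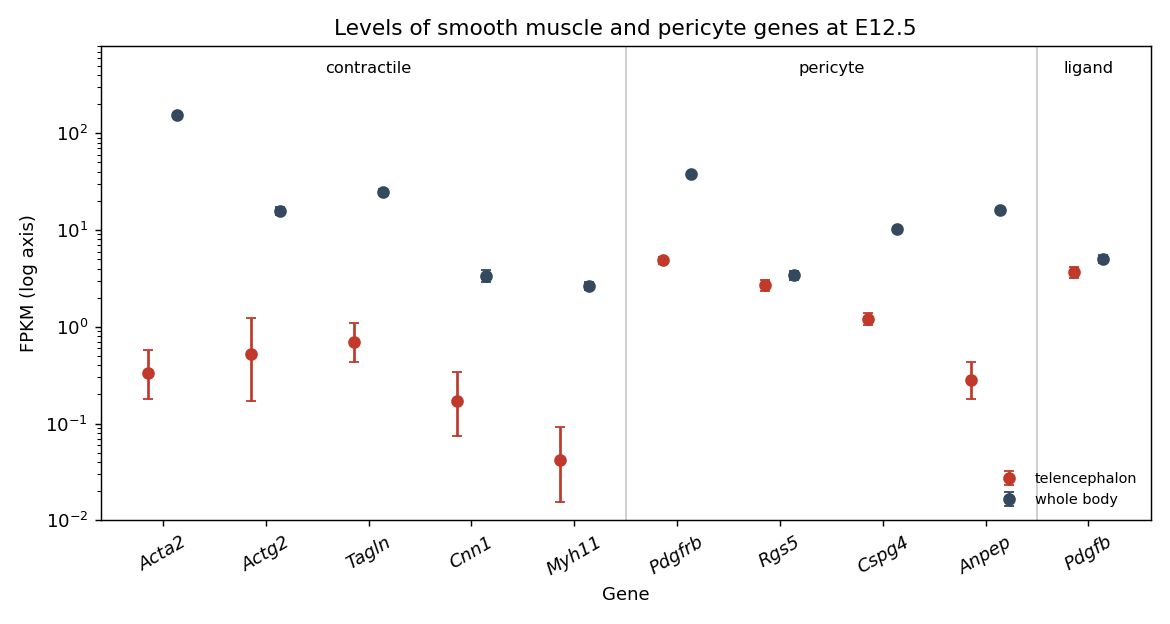
FPKM of each gene (log axis) in telencephalon and in whole body, 1 library each, with 95% Poisson intervals of the fragment counts as bars. The contractile genes lie below 1 FPKM in telencephalon, from 0.0419 to 0.703 FPKM, whereas Rgs5 and Pdgfb lie close together in the libraries.

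Acta2 encodes smooth muscle alpha-actin, the main actin of vascular smooth muscle, on chromosome 19 (34241090 to 34255590, minus strand, 9 exons). It had 0.334 FPKM in telencephalon and 154 FPKM in whole body, from about 13 and 7767 fragments. This was 462-fold lower in telencephalon, with a 95% counting interval from 269 to 864. In whole body it was the most abundant of the 10 genes, with 76.8% of the contractile sum. In telencephalon its share of that sum was 18.8%. It ranked 25 from the lowest log2 ratio of all measured genes.

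Tagln encodes transgelin, an actin-binding protein of early smooth muscle differentiation, on chromosome 9 (45929619 to 45936058, minus strand). It had 0.703 FPKM in telencephalon and 25.0 FPKM in whole body, 35.6-fold lower (interval 23.1 to 58.9, about 20 and 934 fragments). This makes it the highest contractile gene in telencephalon, although its counting interval overlapped those of Actg2 and Acta2. Only 51.7% of its 50-base stretches were its own, because the annotation places an antisense gene within it and the end of Pcsk7, which encodes a proprotein convertase, over 108 bases of its end. Pcsk7 stood at 10.6 FPKM in telencephalon and 8.32 FPKM in whole body, and no value was found for the antisense gene. If the fragments carry no strand, Tagln fragments from the shared stretches cannot be told apart from those of its partners.

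Actg2, the smooth muscle gamma-actin gene of gut and other viscera on chromosome 6 (83512905 to 83536265, minus strand), had 0.523 FPKM in telencephalon and 15.8 FPKM in whole body. It was 30.2-fold lower (interval 12.8 to 93.1), but only about 5 fragments stood behind the telencephalon value. Of these, about 3.44 were assigned to a non-coding isoform of 673 bases and 1.55 to a coding isoform of 1273 bases. In FPKM, which divides by length, the non-coding isoform held 86.1% of the gene in telencephalon. The full coding isoform of 1333 bases held 0.0268% of the FPKM in telencephalon and 100% in whole body. Summed over coding isoforms Actg2 had 0.0726 FPKM in telencephalon and 15.8 FPKM in whole body, which is 217-fold lower (interval 46.3 to 1392), on about 2 coding fragments in telencephalon and 468 in whole body. Of the 5 telencephalon fragments about 0 fell to the full coding isoform, which allows a share of up to 52.2%.

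Cnn1 and Myh11 mark mature contractile cells. Cnn1 encodes calponin, which restrains actomyosin, on chromosome 9 (22099216 to 22109630, plus strand). It had 0.173 FPKM in telencephalon and 3.36 FPKM in whole body, 19.4-fold lower (interval 9.74 to 45.9, about 8 and 203 fragments). Myh11 encodes smooth muscle myosin heavy chain, on chromosome 16 (14194535 to 14291372, minus strand, 41 exons). It had 0.0419 FPKM in telencephalon and 2.64 FPKM in whole body, 63.1-fold lower (interval 28.4 to 170, about 6 and 482 fragments). Of its 6500 stretches of 50 bases, 26 also occurred in Myh9 and 16 in Myh10. Whether fragments of these genes entered the Myh11 value was not tested. The counting intervals of Cnn1 and Myh11 overlapped in telencephalon, where Myh11 was the lowest of the 10 genes, as it was in whole body.

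The pericyte genes were lower too, but with a wide spread, from Rgs5 at 78.5% of its whole-body level to Anpep at 1.76%. Their summed level was 9.05 FPKM in telencephalon and 67.8 FPKM in whole body, or 13.4%. Pdgfrb encodes the receptor for PDGF-B on pericytes and other mesenchyme, on chromosome 18 (61045150 to 61085061, plus strand). It had 4.88 FPKM in telencephalon and 38.03 FPKM in whole body, 7.79-fold lower (interval 7.13 to 8.50, about 565 and 5676 fragments). It was the highest of the 10 genes in telencephalon and ranked after Acta2 in whole body. Its isoform of 5407 bases carried 100% of the signal in telencephalon and 99.7% in whole body.

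Cspg4 encodes the proteoglycan NG2 on the pericyte surface, on chromosome 9 (56865033 to 56899870, plus strand). It had 1.21 FPKM in telencephalon and 10.1 FPKM in whole body, 8.40-fold lower (interval 7.31 to 9.72). Cspg4 kept nearly the same ratio to Pdgfrb, 0.247 in telencephalon and 0.267 in whole body. NG2 is also made by oligodendrocyte precursors. Of 6 measured genes listed for that lineage, 1 was past 2-fold on the higher side in telencephalon. On the lower side 2 were past 2-fold, and 3 lay within 2-fold on the log2 scale. The summed level of the 7 listed genes was 33.2 FPKM in telencephalon and 73.8 FPKM in whole body, and none was at 0. Single genes made up most of each sum. Olig2 had 22.6 FPKM in telencephalon and 0.934 FPKM in whole body, and whether it came from this lineage at E12.5 was not tested. In telencephalon Olig1 and Bcan had 4.93 and 2.59 FPKM, against 2.02 and 2.11 FPKM in whole body. Sox10 and Gpr17 had 0.813 and 1.15 FPKM in telencephalon, against 10.1 and 2.58 FPKM in whole body. Nkx2-2, under the floor, had 0.0246 FPKM in telencephalon and 0.526 FPKM in whole body. Pdgfra, also a gene of fibroblasts and mesenchyme, had 1.14 FPKM in telencephalon and 55.5 FPKM in whole body. The part of this lineage in the Cspg4 level was not tested.

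Rgs5 encodes a regulator that shortens G-protein signals and is a classical marker of brain pericytes, on chromosome 1 (169655501 to 169695813, plus strand). It had 2.67 FPKM in telencephalon and 3.41 FPKM in whole body, 1.27-fold lower (interval 1.08 to 1.52, about 220 and 352 fragments). Its log2 ratio was -0.26, near the median of all measured genes at -0.16, and was -0.16 in TPM. The interval does not cover the choice of scaling. Within the pericyte sum Rgs5 held 29.5% in telencephalon and 5.03% in whole body. Relative to Pdgfrb its level was 0.548 in telencephalon and 0.0896 in whole body. Among 5 other RGS genes, 1 was past 2-fold on the lower side and 4 lay within 2-fold (median log2 ratio 0.07). The summed level of these 5 was 44.9 FPKM in telencephalon and 42.8 FPKM in whole body.

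Anpep encodes aminopeptidase N (CD13), a surface peptidase of brain pericytes that epithelia of gut and kidney and myeloid cells also make, on chromosome 7 (79821803 to 79861059, minus strand). It had 0.285 FPKM in telencephalon and 16.2 FPKM in whole body, 56.7-fold lower (interval 37.3 to 90.8, about 22 and 1554 fragments). In this it lay among the contractile genes and away from the other pericyte genes. Of 9 epithelial marker genes 8 were past 2-fold lower in telencephalon on the log2 scale, and Vil1, under 1 FPKM in both libraries, had 0.0946 FPKM in telencephalon and 0.380 FPKM in whole body. The 8 passed the floor through whole body alone. The list summed to 1.47 FPKM in telencephalon and 127 FPKM in whole body, and Krt14 and Krt18 were listed at 0 in telencephalon. All 8 microglia and macrophage genes were lower, 7 of them past 2-fold on the log2 scale (median -1.45), with a summed level of 13.1 FPKM in telencephalon and 51.7 FPKM in whole body and none at 0. The part of either cell type in the Anpep level was not tested.

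Anpep has a pair of coding isoforms with starts 5858 bases apart. The annotated gene runs further upstream than both, to base 79861059, and none of its isoforms given here starts there. Upstream and downstream are thus meant within this pair. The upstream start, of the isoform of 3797 bases, carried 80.8% of Anpep FPKM in telencephalon and 46.6% in whole body. The downstream start, of the isoform of 3422 bases, carried 19.2% in telencephalon and 53.4% in whole body. In fragments the downstream isoform had about 4 of 22 in telencephalon (18.2%, exact interval 5.19 to 40.3) and 785 of 1554 in whole body (50.5%, 48.0 to 53.0). The intervals do not overlap, yet the telencephalon share rests on few fragments and on how the authors' software divided them between isoforms.

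**Figure D2:**
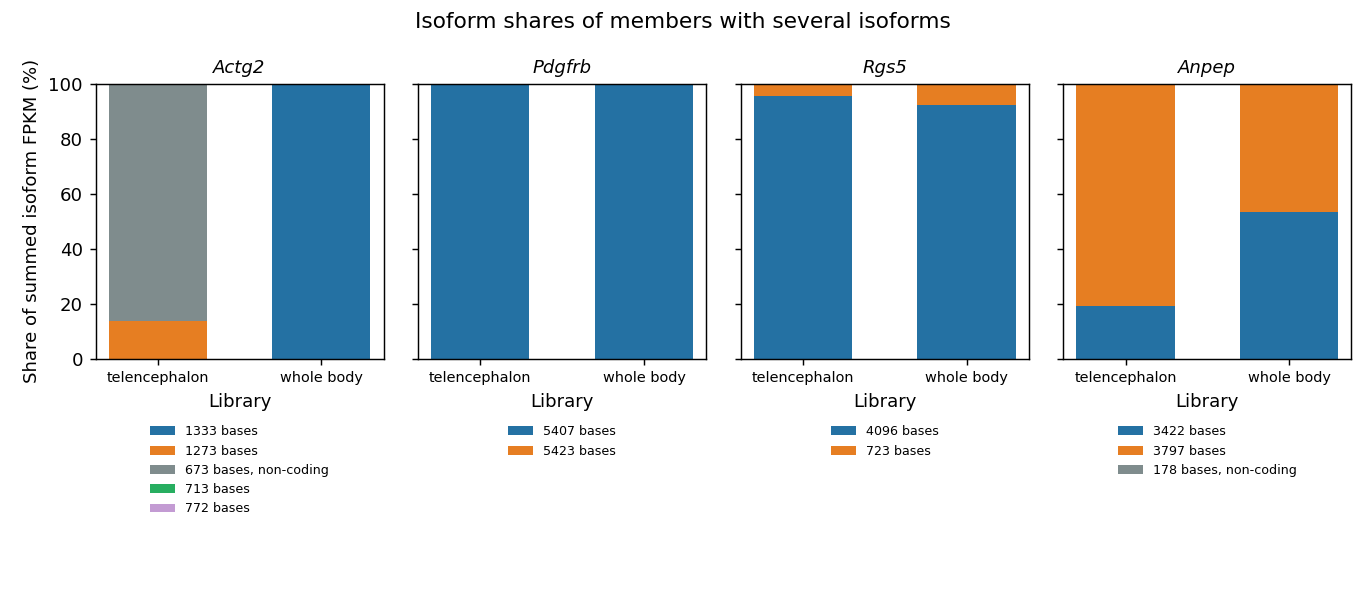
Share of the summed isoform FPKM (%) held by each annotated isoform of the 4 members with several isoforms, in telencephalon and in whole body. Actg2 is mainly a non-coding isoform of 673 bases in telencephalon (86.1%) and the 1333-base coding isoform in whole body, and Anpep is mainly the 3797-base isoform in telencephalon (80.8%).

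The 250 bases before the upstream Anpep start are shown because that start carries most of the Anpep signal in telencephalon, beside those of Rgs5, the pericyte gene nearest to its whole-body level. Both are from RefSeq on GRCm38.p6, run 5′ to 3′ on the strand of the gene, and have each CG pair in capitals. The Anpep stretch is chr7:79848211-79848460 (minus strand) and the Rgs5 stretch is chr1:169655251-169655500 (plus strand).
Anpep: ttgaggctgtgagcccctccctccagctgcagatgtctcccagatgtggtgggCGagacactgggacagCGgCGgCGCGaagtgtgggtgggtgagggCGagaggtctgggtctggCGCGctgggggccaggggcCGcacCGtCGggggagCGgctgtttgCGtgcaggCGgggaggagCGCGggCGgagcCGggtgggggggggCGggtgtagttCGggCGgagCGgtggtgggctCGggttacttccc
Rgs5: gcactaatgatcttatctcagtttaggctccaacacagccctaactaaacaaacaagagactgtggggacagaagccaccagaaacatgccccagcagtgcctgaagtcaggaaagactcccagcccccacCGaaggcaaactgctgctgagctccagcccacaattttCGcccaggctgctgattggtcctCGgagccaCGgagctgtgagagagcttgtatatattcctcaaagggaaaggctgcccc
The Anpep stretch has 23 CG pairs and 72.8% G and C, and the Rgs5 stretch 4 CG pairs and 53.6%. The median over 32851 such windows is 6 CG pairs and 52.4%.

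Windows from 250 bases before to 50 after the RefSeq start were at hand for Acta2, Cnn1, Rgs5, Cspg4 and Anpep. They were searched for a CArG-like motif, CCNNNNNNGG with at least 5 of the 6 middle bases A or T, which reads the same way on both strands. Acta2 had 2 matches and the other 4 windows none. At least 1 match occurred in 9.98% of all windows and at least 2 in 0.822%. The strict form with 6 of 6 was in none of the 5 windows and in 1.63% of all. The Acta2 matches are shown with their surroundings, the motif in capitals. They begin 84 and 34 bases before the RefSeq start, at chr19:34255438-34255467 and chr19:34255388-34255417 (minus strand).
Acta2, 84 bases before: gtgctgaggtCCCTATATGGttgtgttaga
Acta2, 34 bases before: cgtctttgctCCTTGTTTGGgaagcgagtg
GENCODE M21 starts the Acta2 transcript further upstream, so 217 of the 250 bases lie in an annotated exon there. A match is a description of letters, and whether it is a site in use was not tested.

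Pdgfb, the ligand made mainly by endothelium, is on chromosome 15 (79995874 to 80014977, minus strand) and differed little. It had 3.67 FPKM in telencephalon and 5.05 FPKM in whole body, 1.37-fold lower (interval 1.16 to 1.63, about 218 and 389 fragments). The receptor to ligand ratio, Pdgfrb over Pdgfb, was 1.33 in telencephalon and 7.53 in whole body. The other 5 genes of the PDGF family list were lower, 4 of them past 2-fold on the log2 scale and all 5 by the plain ratio of FPKM (median log2 ratio -1.88). Pdgfra, the alpha receptor of fibroblasts and mesenchyme, had 1.14 FPKM in telencephalon and 55.5 FPKM in whole body, 48.6-fold lower. The alpha-receptor ligands Pdgfa and Pdgfc had 6.62 and 4.45 FPKM in telencephalon against 13.9 and 19.1 FPKM in whole body. Pdgfd, a ligand of the beta receptor, had 0.151 FPKM in telencephalon and 1.93 FPKM in whole body. Pdgfrl, a receptor-like gene, had 0.616 FPKM in telencephalon and 8.14 FPKM in whole body.

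Set against each other, the contractile genes had a median fold of 35.6 lower in telencephalon and the pericyte genes 8.10. By the plain ratio of FPKM the contractile gene was further below whole body in 17 of 20 pairs of a contractile and a pericyte gene. The other pairs all set Anpep against Actg2, Tagln or Cnn1. The counting interval of the Anpep fold overlapped those of each of these genes and of Myh11. Over coding isoforms alone Actg2 was 217-fold lower, further than Anpep, on about 2 coding fragments in telencephalon. Counted at 10-fold, 5 of 5 contractile and 1 of 4 pericyte genes were lower, where 9.72% of all measured genes were. The members so counted passed the floor through whole body alone. On the scale of log2(FPKM + 1) the medians were -3.46 for contractile and -2.53 for pericyte genes, a difference of -0.93, and the contractile gene was lower in 13 of 20 pairs. Cnn1 at -1.89 and Myh11 at -1.80 then lay above Pdgfrb at -2.73 and Cspg4 at -2.34, since both have under 4 FPKM in whole body. The ranges of the groups overlapped on either scale, and the median of all measured genes was -0.16.

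**Figure D3:**
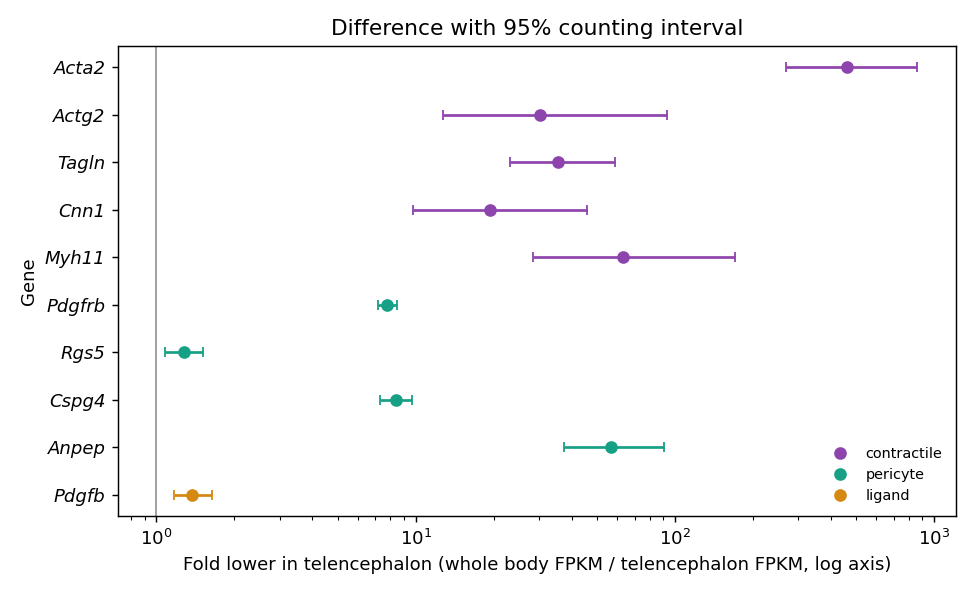
Fold by which each gene was lower in telencephalon (whole body FPKM over telencephalon FPKM, log axis), with 95% exact counting intervals as bars and colour by group. The contractile genes run from 19.4 to 462, Pdgfrb and Cspg4 lie at 7.79 and 8.40, Anpep at 56.7, and Rgs5 and Pdgfb near 1.

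The order of the levels differed between the libraries. In telencephalon Pdgfrb, Pdgfb, Rgs5 and Cspg4 came first, and their counting intervals did not overlap. The other 6 followed as Tagln, Actg2, Acta2, Anpep, Cnn1 and Myh11, with overlapping intervals between all neighbours. The intervals of Tagln and Actg2 also overlapped that of Cspg4. In whole body the order was Acta2, Pdgfrb, Tagln, Anpep, Actg2, Cspg4, Pdgfb, Rgs5, Cnn1 and Myh11. There, among neighbours, the intervals overlapped only between Anpep and Actg2 and between Rgs5 and Cnn1. Pdgfrb over Acta2 was 14.6 in telencephalon and 0.246 in whole body.

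Most other genes of smooth muscle were lower in telencephalon as well. Among 20 measured genes of 22 listed, 17 were past 2-fold on the lower side and 0 on the higher side (median -2.45). Over all measured genes the shares were 21.2% and 9.39%. Some of the 17, Des among them, passed the floor through whole body alone. Des, the muscle intermediate filament desmin, was lowest with 0.163 FPKM in telencephalon and 20.2 FPKM in whole body. Tpm2 (beta-tropomyosin) had 3.06 FPKM in telencephalon and 66.3 FPKM in whole body, and Cnn2, a calponin of many cell types, had 5.54 FPKM in telencephalon and 105 FPKM in whole body. At the other end Ppp1r12b, a subunit of myosin phosphatase, had 6.48 FPKM in telencephalon and 4.14 FPKM in whole body. Myl6, a myosin light chain of muscle and non-muscle cells, had 77.9 FPKM in telencephalon and 92.4 FPKM in whole body, and Pdlim7 had 38.4 FPKM in telencephalon and 58.2 FPKM in whole body. Of the cytoplasmic actins, Actb had 3919 FPKM in telencephalon and 2958 FPKM in whole body, and Actg1 1197 FPKM in telencephalon and 992 FPKM in whole body. Actc1 was 577-fold lower, at 0.734 FPKM in telencephalon and 423 FPKM in whole body.

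Among 11 regulators of smooth muscle, 8 were past 2-fold on the lower side and 0 on the higher side (median -2.39). The shares over all measured genes were 21.2% and 9.39%. Of these 8, all but Prrx1 passed the floor through whole body alone. The general factors lay within 2-fold. Srf had 19.1 FPKM in telencephalon and 24.9 FPKM in whole body, and its coactivators Mkl1 and Mkl2 had 22.1 and 6.65 FPKM in telencephalon against 19.1 and 12.2 FPKM in whole body. Myocd (myocardin), the coactivator restricted to heart and smooth muscle and named after its value was seen, had 0.0586 FPKM in telencephalon and 2.02 FPKM in whole body. The lowest were Barx1, a factor of stomach mesenchyme with 0.0413 FPKM in telencephalon and 18.3 FPKM in whole body, the mesenchymal factor Prrx1 (1.26 FPKM in telencephalon and 40.6 FPKM in whole body), and Gata6 (0.108 FPKM in telencephalon and 10.1 FPKM in whole body).

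Other pericyte genes split. Among 16 measured genes of 20 listed, 8 were past 2-fold on the lower side and the other 8 were within that margin (median -0.94). The share past 2-fold lower over all measured genes was 21.2%. Some of the 8 lower genes, Ifitm1 among them, passed the floor through whole body alone. The lowest were Ifitm1 (0.392 FPKM in telencephalon and 29.6 FPKM in whole body), Cd248 or endosialin, a surface protein of pericytes and fibroblasts (4.88 FPKM in telencephalon and 67.5 FPKM in whole body), and Vtn, which encodes vitronectin and is also made in liver (6.32 FPKM in telencephalon and 46.7 FPKM in whole body). The highest were Gper1 (4.78 FPKM in telencephalon and 3.21 FPKM in whole body), Art3 (1.68 FPKM in telencephalon and 1.42 FPKM in whole body) and Zic1, a factor that neural progenitors also make. Kcnj8 and Notch3, named after their values were seen, kept 66.3% and 76.5% of their whole-body levels. Kcnj8 encodes a subunit of the ATP-sensitive potassium channel of pericytes, and Notch3 is a Notch receptor of mural cells. The part of other cells in the Notch3 level, 28.0 FPKM in telencephalon, was not tested. Slc6a20a was listed at 0 in telencephalon and Higd1b in both libraries.

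Endothelial genes, which report the vessels that pericytes cover, were all lower in telencephalon. On the log2 scale 12 of 15 were past 2-fold (median -1.49), against 21.2% of all measured genes. Their summed level was 92.8 FPKM in telencephalon and 281 FPKM in whole body, and none was at 0. The 15 genes had 11.0% to 89.9% of their whole-body level, with a median of 30.1%. Pdgfrb and Cspg4 lay at 12.8% and 11.9% and Rgs5 and Pdgfb at 78.5% and 72.7%, on either side of this median but within the range. Relative to Pecam1, an adhesion molecule of all endothelium chosen after its value was seen, Pdgfrb stood at 0.819 in telencephalon and 2.05 in whole body, and Rgs5 at 0.448 in telencephalon and 0.184 in whole body. Acta2 relative to Pecam1 stood at 0.0560 in telencephalon and 8.33 in whole body. How far vessel content bears on the pericyte levels was not tested.

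**Figure D4:**
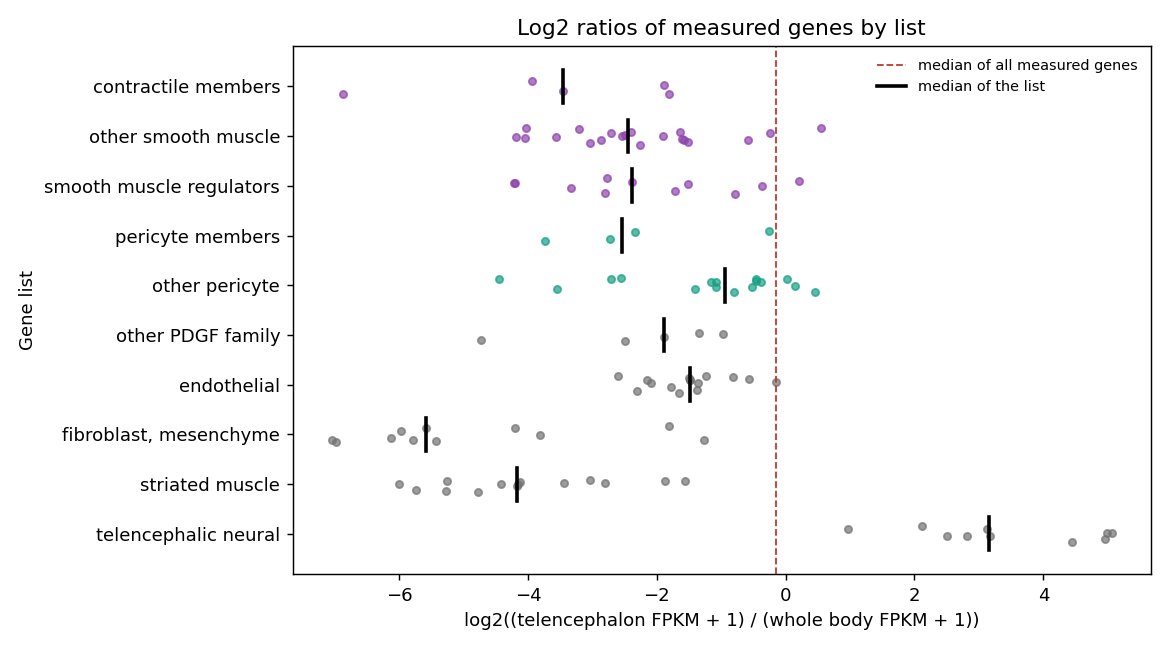
Telencephalon over whole body as log2 ratios of FPKM + 1 for the measured genes in each list, one point per gene, with the list's median as a black bar and the median of all measured genes (-0.16) as a dashed line. The contractile members have a median of -3.46, the pericyte members -2.53, other pericyte genes -0.94 and endothelial genes -1.49.

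Acta2 and Tagln are also made by embryonic heart and skeletal muscle, and Acta2 and Pdgfrb by fibroblastic mesenchyme. Of 15 striated muscle genes 14 were past 2-fold lower in telencephalon on the log2 scale, and all 14 passed the floor through whole body alone. Ryr2, under the floor, had 0.336 FPKM in telencephalon and 0.564 FPKM in whole body. The summed level of the 15 was 4.26 FPKM in telencephalon and 399 FPKM in whole body, and Myl7 was listed at 0 in telencephalon. All 11 fibroblast and mesenchyme genes were past 2-fold lower on the log2 scale (median -5.58), against 21.2% of all measured genes. Some of the 11, Postn among them, passed the floor through whole body alone. Their list summed to 51.8 FPKM in telencephalon and 1938 FPKM in whole body, or 2.67%, and none was at 0. The part of these cell types in the contractile and Pdgfrb levels was not tested.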

How the data were processed

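The authors deposited FPKM per gene and per isoform for a telencephalon and a whole-body library. The tools were TopHat, Cufflinks and Cuffdiff with the genome build GRCm38, per the submitters' processing notes, and their versions and the annotation release are not given in the sources used here. From these values log2((telencephalon FPKM + 1) / (whole body FPKM + 1)) was computed, and plain ratios were taken beside it. A gene was measured at 1 FPKM or more in either library. Genes low in telencephalon, in the members and in the lists, could thus pass this floor through whole body alone. No test was run, since each group has 1 library.

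Fragments were estimated from FPKM steps of single-isoform genes of GENCODE M21, with 338 bases subtracted from transcript length in telencephalon and 322 in whole body. In genes left out of the fit 91.8% of 1248 and 92.4% of 1143 values lay within 0.1 of a whole fragment, where the tolerance alone would give 20%. The libraries have no molecular identifiers, so the 95% exact binomial and Poisson intervals cover counting error only. The fit and the ratio were tested on simulated data. Python 3.11.15, pandas 2.3.3, scipy 1.17.1 and Biopython 1.88 were used.

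The members and the 13 companion lists were chosen with earlier results of these data known. The genes named were all members and, from each list, examples among the 3 highest and 3 lowest log2 ratios, or others marked as chosen after their values were seen. Genes listed at 0 and genes under the floor were also named after their values were seen. Symbols were matched also by Ensembl identifier, and Acta1 and Foxf1 were not analysed here. Alternatives were other pseudocounts, scalings, floors and isoform sums, and no pseudocount.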

Additional observations from a re-analysis of the deposited data

How the results depend on the processing

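Every member was lower in telencephalon under the 7 other settings tried and with no pseudocount, a setting chosen after seeing the data, except that a floor of 5 FPKM left out Rgs5, Cnn1 and Myh11. The size depended on the pseudocount, on TPM scaling and on the floor. The contractile median log2 ratio was -4.67 with 0.1 FPKM, -3.99 with 0.5 FPKM, -5.15 with none, -3.90 in TPM and -3.93 at a floor of 5 FPKM. The pericyte median was -2.95, -2.74 and -3.02 with 0.1, 0.5 and no pseudocount, and -2.73 at that floor. The difference of the medians was -1.72 with 0.1 FPKM and -2.14 with none. TPM moved the median of all genes from -0.16 to -0.01. Other pericyte genes that were 2-fold lower numbered 5 at the floor of 5 FPKM, in place of 8, because fewer genes were left. Oligodendrocyte precursor genes that were 2-fold higher numbered 2, in place of 1, with pseudocounts of 0.1 and 0.5 FPKM, a common upper quartile and TPM. The gene that crossed was Olig1, whose log2 ratio of 0.975 in the main setting lay just under the threshold of 1. Depth limits the contractile genes most, with 5 to 20 fragments each in telencephalon. No paired analysis was possible because each group has 1 library.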
